A study of Mus musculus with 8 samples.

Results

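The genes described here are 10 cytokine receptor chains: *Il2ra*, *Il2rb*, *Il2rg*, *Il7r*, *Il4ra*, *Il21r* and *Il15ra* of the common gamma chain (γc) family, and *Il12rb1*, *Il12rb2* and *Il18r1* of the receptors for IL-12 and IL-18. They were chosen by symbol and not by a rule on their measured levels, but with earlier results of these data known. Each was matched to its Ensembl gene in the GRCm38 annotation. All 10 chains passed the low-count filter, among 11189 genes that did so of 55536 annotated genes counted.

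Messenger RNA was sequenced from cultures of OT-I CD8+ T cells of C57BL/6 mice on a Rag1-deficient background. OT-I cells all recognise SIINFEKL, a peptide of chicken ovalbumin, through the same transgenic receptor. Lymph node cells of both groups were activated with 100 nM peptide for 2 days, washed, and kept for a further 2 days in medium with recombinant human IL-2 at 20 ng/ml. The GC7-treated group (4 libraries) also received 10 µM GC7 during the IL-2 culture, and the mock-treated group (4 libraries) received the acetic acid vehicle. GC7 is a spermidine analogue that inhibits DHPS, the enzyme that starts the hypusination of the translation factor eIF5a. Both groups were therefore activated cells under continuous IL-2, with no unstimulated or IL-2-free group beside them, and the study's own text describes effects of GC7 outside eIF5a. Per the study's methods the donor mice were juvenile to young adult and of randomised sex. The age and sex behind each library are not given in the sources used here, nor is whether the 4 replicate numbers stand for separate animals, so the p-values measure the spread between these libraries.

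The receptors for γc cytokines and IL-12 have no kinase of their own. Their signalling chains hold Janus kinases on the cytoplasmic tail, and ligand binding brings these chains together so that the kinases phosphorylate STAT factors, which enter the nucleus. The α chains for IL-2 and IL-15 bind ligand and hold no Janus kinase. The γc chain, encoded by *Il2rg*, is shared by the receptors for IL-2, IL-4, IL-7, IL-9, IL-15 and IL-21 and carries JAK3, while the partner signalling chains carry JAK1. In CD8+ T cells IL-2 and IL-15 support growth and cytotoxic function through STAT5, IL-7 supports survival of naïve and memory cells, and IL-12 and IL-18 together promote interferon γ production. The IL-18 receptor belongs to the IL-1 receptor family and signals through MYD88 and not through Janus kinases.

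*Il21r* and *Il15ra* rose in GC7-treated cells, and *Il2rb* and *Il18r1* fell. Levels are given as CPM, a gene's counts relative to its library's total, with the totals scaled by TMM factors so that most genes match between libraries. Called means an FDR under 0.01 in edgeR's quasi-likelihood test with Benjamini-Hochberg adjustment over all genes tested. Of the 10 chains, 2 were called higher and 2 lower. Among all genes tested, 23.0% were called higher and 23.5% lower, so the share of chains called was close to that of all genes. With a change of more than 2-fold also required, *Il21r* remained as 1 higher chain (background 3.17% of genes) and *Il18r1* as 1 lower chain (background 5.31%). At an FDR under 0.05, 4 chains were higher (30.4% of all genes) and 4 lower (29.0%), the added chains being *Il2rg* and *Il12rb2* above and *Il2ra* and *Il7r* below. The 4 libraries of each group did not overlap for 5 chains, 3 with GC7 above mock (28.1% of all genes) and 2 with GC7 below (27.5%), and overlapped for the other 5. The median log2 fold change over the 10 chains was -0.12 beside 0.02 over all genes, and the median size of the change regardless of sign was 0.40 beside 0.29. The counts rest in part on mock replicate 2: without it 4 chains were called higher and 4 lower. Without GC7 replicate 3 the counts were 3 and 3, and without both libraries they were again 4 and 4. Calls over all genes moved as well, from 2579 higher and 2635 lower with all libraries to 2859 and 2845 without mock replicate 2. They were 2371 and 2570 without GC7 replicate 3, and 3223 and 3149 without both.

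**Figure D1:**
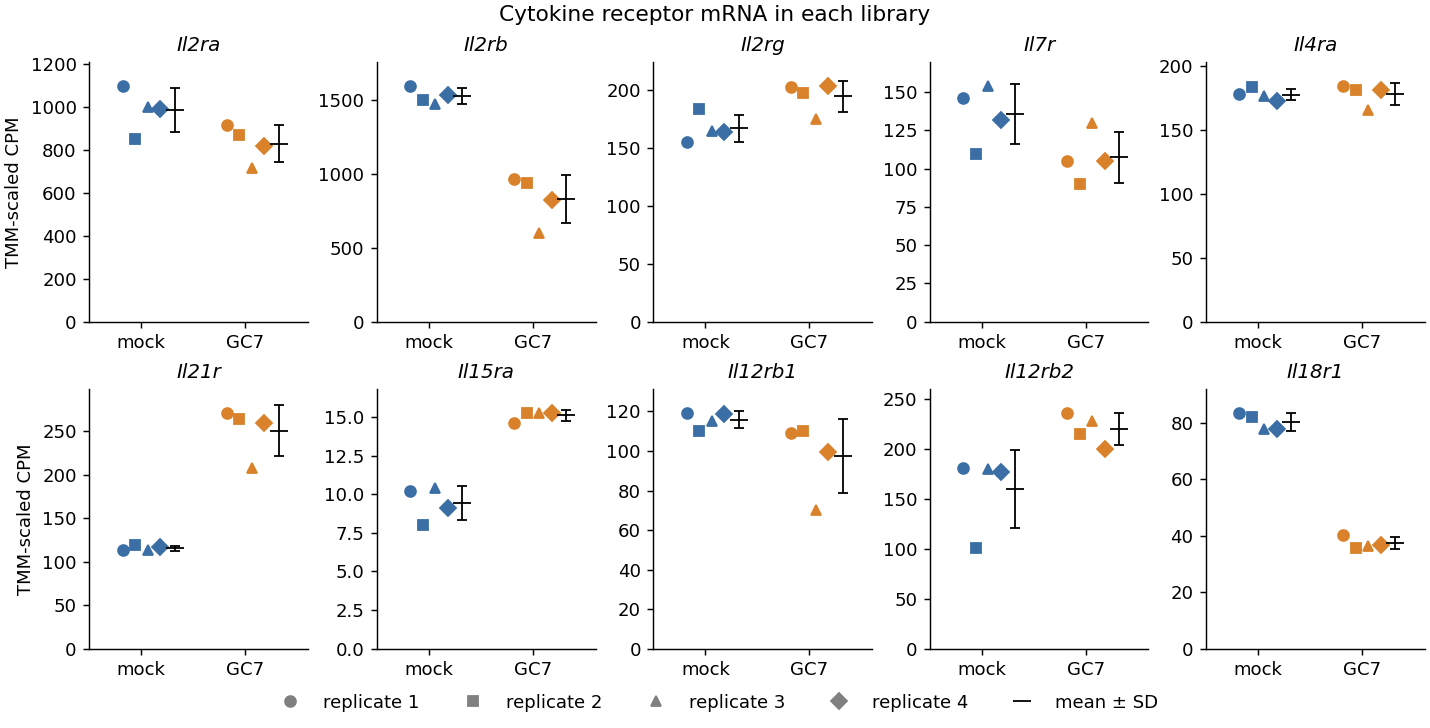
TMM-scaled CPM (y axis from 0) of the 10 receptor chains in each mock (blue) and GC7 (orange) library, with a marker shape per replicate number and the mean ± SD beside each group. *Il21r* and *Il15ra* lay higher and *Il2rb* and *Il18r1* lower in all 4 GC7 libraries than in any mock library, and mock replicate 2 stood apart for *Il12rb2* at 101 CPM.

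Promoter sequences of 3 called chains are shown as the sequence context of genes that moved in opposite directions. RefSeq (GRCm38.p6) windows of 300 bases, 250 of them before the transcript start, were at hand for 8 of the 10 chains, in 11 windows. *Il2rb* and *Il12rb1* had no window, so of the 2 chains called lower only *Il18r1* could be searched. Capitals mark a match, on either strand, to short motifs of factor families known to act on T cell genes. The motifs were TTCNNNGAA for STAT5, the same TTC and GAA set 4 bases apart for STAT6, TGTTTAC for FOXO, TGACTCA for AP-1, CCGGAAG for ETS, TGTGGTT for RUNX, TCACACC for T-box factors, CTTTGAT for TCF and LEF, and CACGTG for E-boxes. The *Il21r* window (chr7:125603179-125603478, plus strand) holds a FOXO match:
Il21r: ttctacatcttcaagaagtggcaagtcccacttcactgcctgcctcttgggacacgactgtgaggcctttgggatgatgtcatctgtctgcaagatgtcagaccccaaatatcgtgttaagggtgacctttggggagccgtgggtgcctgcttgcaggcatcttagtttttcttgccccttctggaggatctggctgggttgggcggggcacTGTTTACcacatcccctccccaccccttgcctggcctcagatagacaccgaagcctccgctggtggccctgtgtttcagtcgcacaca
The *Il15ra* window at the upstream start (chr2:11705043-11705342, plus strand) holds an ETS match:
Il15ra: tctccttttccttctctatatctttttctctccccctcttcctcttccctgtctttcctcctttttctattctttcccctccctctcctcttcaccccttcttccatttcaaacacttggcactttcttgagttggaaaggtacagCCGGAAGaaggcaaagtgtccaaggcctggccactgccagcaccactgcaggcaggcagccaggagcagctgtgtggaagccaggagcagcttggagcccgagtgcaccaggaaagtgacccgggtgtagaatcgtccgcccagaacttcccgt
The *Il18r1* window at the upstream start (chr1:40465302-40465601, plus strand) holds a STAT6 match:
Il18r1 upstream start: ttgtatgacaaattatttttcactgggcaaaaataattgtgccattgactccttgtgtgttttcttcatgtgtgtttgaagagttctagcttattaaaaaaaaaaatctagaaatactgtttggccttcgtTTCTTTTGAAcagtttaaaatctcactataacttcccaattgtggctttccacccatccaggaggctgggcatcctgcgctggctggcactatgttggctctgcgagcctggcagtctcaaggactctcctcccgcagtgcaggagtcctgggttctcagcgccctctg
A further *Il18r1* window (chr1:40465756-40466055, plus strand) holds 2 STAT5 matches:
Il18r1 downstream start: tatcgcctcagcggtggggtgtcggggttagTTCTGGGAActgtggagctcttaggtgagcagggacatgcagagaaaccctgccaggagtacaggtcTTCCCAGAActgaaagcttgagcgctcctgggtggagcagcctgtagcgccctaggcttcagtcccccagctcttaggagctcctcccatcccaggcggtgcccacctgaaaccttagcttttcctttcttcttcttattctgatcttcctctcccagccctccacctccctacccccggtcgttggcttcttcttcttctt

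Counted from the transcript start as base 0, the FOXO letters in *Il21r* span -38 to -32 and the ETS letters in *Il15ra* span -104 to -98. In *Il18r1*, the STAT6 letters span -119 to -110 of the upstream start, and the STAT5 letters span -219 to -211 and -152 to -144 of the downstream start. Among chains whose change was not called, *Il12rb2* holds a STAT5 match from -123 to -115, *Il7r* holds a STAT5 match from -142 to -134 and a RUNX match from 3 to 9, and *Il2rg* holds an ETS match from -17 to -11. A second *Il15ra* start has an AP-1 match from -30 to -24, and a second *Il18r1* start has the same STAT6 letters and a RUNX match from 21 to 27. The *Il2ra* and *Il4ra* windows hold none of these letters. Such matches are common: of 32817 windows, 8.29% hold the STAT5 motif, 6.94% the STAT6 motif, 3.65% the FOXO motif, 5.2% the AP-1 motif, 8.86% the ETS motif, 5.27% the RUNX motif, 3.98% the T-box motif, 3.73% the TCF and LEF motif and 7.15% the E-box motif.

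*Il2rb* (ENSMUSG00000068227, chromosome 15, 78479256 to 78495271, minus strand) encodes the β chain that IL-2 and IL-15 share and that is needed for signalling by both. Its level was 1596, 1497, 1475 and 1531 CPM in mock replicates 1 to 4 and 962, 937, 600 and 821 CPM in GC7 replicates 1 to 4. All GC7 libraries lay well below all mock libraries, and GC7 replicate 3 was the lowest of the 8. The mean was 1525 ± 52.7 CPM in mock and 830 ± 165 CPM in GC7 (SD, n = 4 each), a log2 fold change of -0.88 (SE 0.12, edgeR adjusted p = 6.8e-05), with a raw count of at least 10748 in every library.

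*Il2ra* (ENSMUSG00000026770, chromosome 2, 11642807 to 11693193, plus strand) encodes the α chain, CD25, which binds IL-2 but does not signal and is a known target of STAT5. The mock libraries held 1101, 854, 1002 and 991 CPM and the GC7 libraries 918, 873, 715 and 818 CPM. The groups overlapped, because mock replicate 2 lay below GC7 replicates 1 and 2. The log2 fold change was -0.25 (SE 0.09, edgeR adjusted p = 0.0382), which did not pass the threshold. Without mock replicate 2 the value was -0.31 (edgeR adjusted p = 0.00578). It was weaker without GC7 replicate 3, at -0.19 (edgeR adjusted p = 0.0847), and with library totals, at -0.16 (edgeR adjusted p = 0.2).

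*Il2rg* (ENSMUSG00000031304, chromosome X, 101264378 to 101268255, minus strand), the γc chain itself, had 155, 183, 164 and 163 CPM in mock and 202, 197, 175 and 203 CPM in GC7 libraries. The groups met where mock replicate 2 was high and GC7 replicate 3 was low. The log2 fold change was 0.22 (SE 0.07, edgeR adjusted p = 0.0173), short of the threshold. With mock replicate 2 or GC7 replicate 3 left out, it passed the threshold, as it did with library totals as the scaling (edgeR adjusted p = 0.00152). Without mock replicate 1 it was weaker, at 0.19 (edgeR adjusted p = 0.0608). The gene shares 728 exonic bases with *Gm20489* on the same strand, which had at most 2 counts in any library. How reads on such shared bases were counted is not given in the sources used here. The *Il2rg* level, also per length and as a share, is uncertain to that extent.

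The 3 chains of the high-affinity IL-2 receptor therefore differed in relation to each other. On a per-length scale (reads per kb of exons, as a share of the 3 chains within a library), *Il2rb* took 59.5% ± 0.94 in mock and 45.7% ± 3.11 in GC7 libraries. *Il2ra* took 28.8% ± 2.02 and 34.8% ± 1.53, and *Il2rg* took 11.7% ± 1.25 and 19.5% ± 1.73 (SD, n = 4 each). None of these shares overlapped between the groups. *Il2rb* was the only chain of the 3 whose share was lower in GC7 libraries, and *Il2ra*, whose own change was not called, took a larger share of a smaller total.

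**Figure D2:**
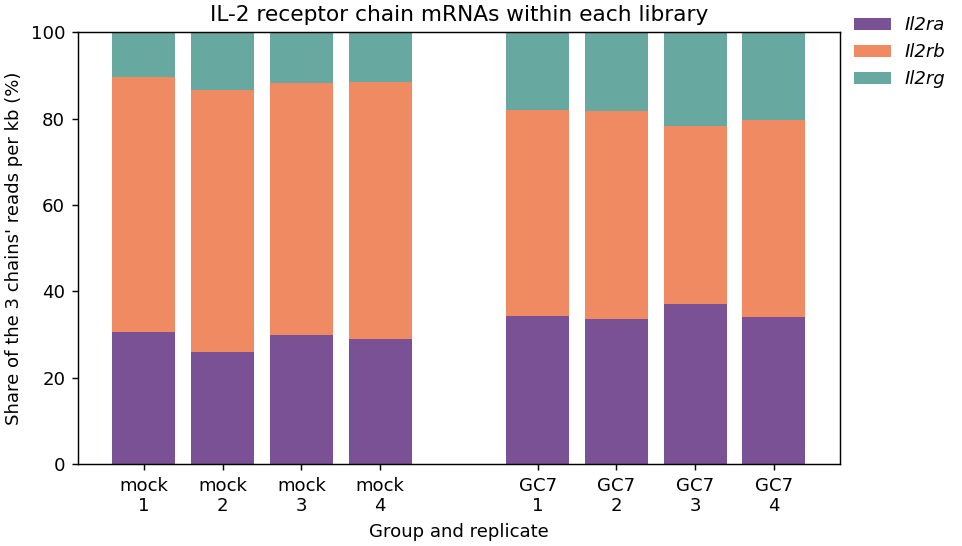
Share (%) of the IL-2 receptor chain reads per kb of exons that came from *Il2ra*, *Il2rb* and *Il2rg* in each library, stacked to 100. The *Il2rb* share was 59.5% on average in mock and 45.7% in GC7 libraries, and every GC7 library lay below every mock library.

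Raw count ratios within a library do not depend on the scaling between libraries. For *Il2ra* over *Il2rb* the ratio was 0.69, 0.57, 0.68 and 0.65 in mock and 0.95, 0.93, 1.19 and 0.996 in GC7 replicates 1 to 4. For *Il2rb* over *Il2rg* the mean ratio was 9.20 ± 0.88 in mock and 4.25 ± 0.64 in GC7. The groups lay apart for both ratios, and also for *Il2ra* over *Il2rg*, at 5.98 ± 0.999 and 4.27 ± 0.25 (SD, n = 4 each). Of the other ratios to *Il2rg*, those of *Il7r* (0.82 ± 0.16 in mock, 0.56 ± 0.13 in GC7) and *Il12rb2* (0.98 ± 0.28 and 1.14 ± 0.14) overlapped between the groups. Those of *Il4ra*, *Il21r*, *Il15ra*, *Il12rb1* and *Il18r1* did not overlap. All ratios given here are descriptions and were not tested.

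*Il15ra* (ENSMUSG00000023206, chromosome 2, 11705290 to 11734317, plus strand) encodes the α chain that binds IL-15 with high affinity and can present it to neighbouring cells, and lies next to *Il2ra* on the same strand. It had the lowest level of the 10 chains, at 10.2, 7.99, 10.4 and 9.12 CPM in mock and 14.6, 15.3, 15.3 and 15.3 CPM in GC7 libraries. The groups did not overlap, and the GC7 libraries were closely alike. It rose by a log2 fold change of 0.68 (SE 0.10, edgeR adjusted p = 8.5e-05) from a mean of 9.44 ± 1.12 CPM to 15.1 ± 0.34 CPM. Its counts, between 182 and 366 in the libraries with the lowest and highest count, were the smallest behind any of the 10 chains. Relative to *Il2rb*, the signalling chain it works with, the ratio of raw counts was 0.0062 ± 0.0007 in mock and 0.0189 ± 0.0046 in GC7 libraries, without overlap. Since *Il15ra* lay higher and *Il2rb* lower in every GC7 library, this separation follows from their own levels.

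*Il21r* (ENSMUSG00000030745, chromosome 7, 125603429 to 125633570, plus strand) encodes the chain that pairs with γc to bind IL-21, a cytokine of helper T cells that signals mainly through STAT3. Mock libraries held 113, 119, 113 and 116 CPM, and GC7 libraries held 271, 264, 208 and 259 CPM. Every GC7 library was well above every mock library, with GC7 replicate 3 the lowest of its group. The mean went from 115 ± 2.71 to 251 ± 28.9 CPM, 2.17-fold higher, with a log2 fold change of 1.12 (SE 0.08, edgeR adjusted p = 2.4e-07). This was the largest rise among the 10 chains. As a ratio of raw counts to its partner *Il2rg*, it went from 0.69 ± 0.03 in mock to 1.29 ± 0.07 in GC7 libraries, without overlap.

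*Il4ra* (ENSMUSG00000030748, chromosome 7, 125552120 to 125579474, plus strand), the neighbour of *Il21r* upstream on the same strand, encodes the chain that binds IL-4 and, with another partner, IL-13. Its level was 178, 183, 176 and 173 CPM in mock and 184, 181, 165 and 181 CPM in GC7 libraries. The groups overlapped and their means, 177 ± 4.44 and 178 ± 8.61 CPM, lay within the spread of either. The log2 fold change was 0.0040 (SE 0.06, edgeR adjusted p = 0.957), and its sign turned under 3 other scalings or tests and 1 other filter. So of 2 neighbouring receptor genes on chromosome 7, *Il21r* was called and *Il4ra* was not, and the ratio of *Il21r* to *Il4ra* counts was 0.65 ± 0.02 in mock and 1.41 ± 0.10 in GC7 libraries. *Il4ra* shares 571 exonic bases with the antisense gene *Gm44876*, which had at most 2 counts.

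*Il7r* (ENSMUSG00000003882, chromosome 15, 9505788 to 9530176, minus strand) encodes the IL-7 receptor α chain, CD127, which activated T cells lose and memory precursors keep. The levels were 146, 109, 154 and 132 CPM in mock and 105, 89.98, 130 and 105 CPM in GC7 libraries. The groups overlapped, since mock replicate 2 was low and GC7 replicate 3 was high. The log2 fold change was -0.34 (SE 0.12, edgeR adjusted p = 0.0276), short of the threshold. Without mock replicate 2 it was -0.42 (edgeR adjusted p = 0.00272), and it was also called without GC7 replicate 3 and with no low-count filter. The fall was weaker with library totals, at -0.25 (edgeR adjusted p = 0.113). It was also weaker without mock replicate 1 (-0.30, edgeR adjusted p = 0.0714) or mock replicate 3 (-0.27, edgeR adjusted p = 0.0877). Without GC7 replicate 1, 2 or 4 it was -0.33, -0.26 and -0.33 (edgeR adjusted p = 0.0595, 0.0816 and 0.0621).

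*Il18r1* (ENSMUSG00000026070, chromosome 1, 40465552 to 40500854, plus strand) encodes the chain that binds IL-18. Its level was 83.6, 82.1, 77.6 and 77.8 CPM in mock and 40.4, 35.7, 36.5 and 36.7 CPM in GC7 libraries. Each group was narrow, and the highest GC7 library was far under the lowest mock library. It was the chain that fell most, by 1.11 on the log2 scale (SE 0.06, edgeR adjusted p = 3.3e-08), from 80.3 ± 3.0 to 37.3 ± 2.09 CPM. *Il18rap*, the signalling partner that IL-18 needs, was not called, with 47.6 ± 2.71 CPM in mock and 42.4 ± 5.11 CPM in GC7 and a log2 fold change of -0.17 (SE 0.09, edgeR adjusted p = 0.122). The ratio of *Il18r1* to *Il18rap* counts was 1.92, 1.71, 1.58 and 1.57 in mock and 0.88, 0.77, 1.02 and 0.89 in GC7 replicates 1 to 4. All GC7 ratios were below all mock ratios.

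*Il12rb1* (ENSMUSG00000000791, chromosome 8, 70808449 to 70821424, plus strand) encodes the chain shared by the receptors for IL-12 and IL-23. It had 119, 110, 115 and 119 CPM in mock and 109, 110, 70.3 and 99.7 CPM in GC7 libraries. GC7 replicate 3 was far below the rest, and the groups overlapped. The log2 fold change was -0.25 (SE 0.12, edgeR adjusted p = 0.0812), and without GC7 replicate 3 it was -0.13. With no low-count filter it was called lower (edgeR adjusted p = 0.00859).

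*Il12rb2* (ENSMUSG00000018341, chromosome 6, 67291318 to 67376188, minus strand) encodes the IL-12-specific chain, which activates STAT4 and is known to be induced during effector differentiation. It had 182, 101, 180 and 177 CPM in mock and 237, 215, 228 and 200 CPM in GC7 libraries. Mock replicate 2 was far below the others, and all GC7 libraries were above all mock libraries. The log2 fold change was 0.46 (SE 0.15, edgeR adjusted p = 0.02), which missed the threshold with all libraries. Without mock replicate 2 it was smaller, at 0.29, and passed it (edgeR adjusted p = 0.00104). It also passed in DESeq2 (adjusted p = 0.00631) and with no low-count filter. Without GC7 replicate 1 it was 0.42 (edgeR adjusted p = 0.0522). The gene shares 1519 of its 3794 exonic bases with *Serbp1* on the opposite strand, an abundant transcript with 15642 to 20827 counts a library. The strand setting of the counting is not given in the sources used here, so reads from the shared bases cannot be told apart, and the *Il12rb2* level is uncertain to that extent. *Serbp1* itself had a log2 fold change of 0.08 (SE 0.06, edgeR adjusted p = 0.306). The ratio of *Il12rb2* to *Il12rb1* counts was 1.52, 0.92, 1.56 and 1.49 in mock and 2.17, 1.95, 3.25 and 2.01 in GC7 replicates 1 to 4, without overlap, with an outlying library in each group.

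**Figure D3:**
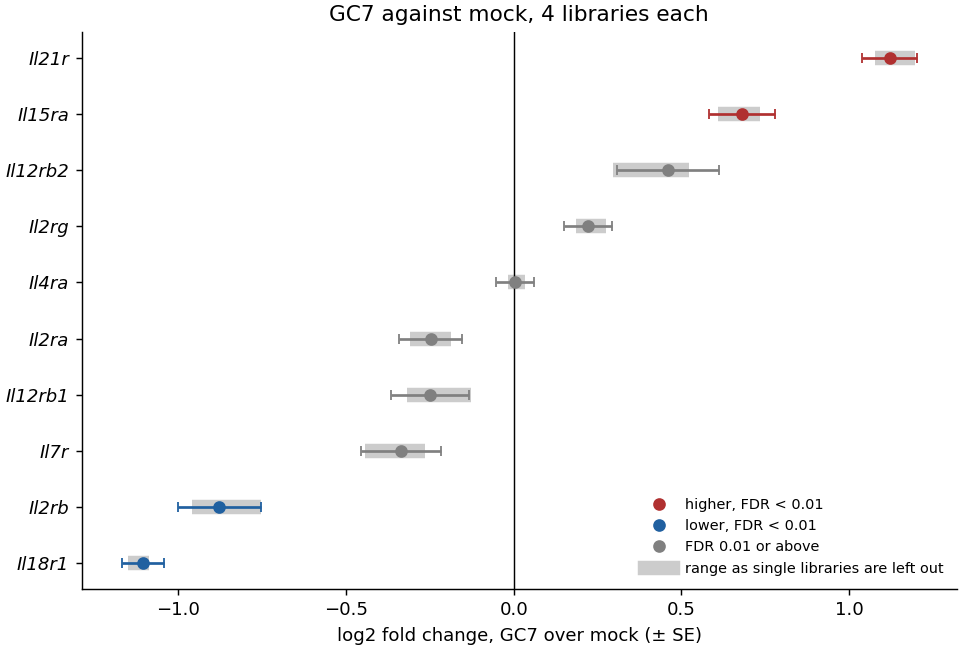
Log2 fold change (x axis, GC7 over mock) of each chain with its SE, coloured by call, over a grey bar for the range as single libraries are left out. The values ran from -1.11 for *Il18r1* to 1.12 for *Il21r*, and the grey bar crossed 0 for *Il4ra* alone.

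**Figure D4:**
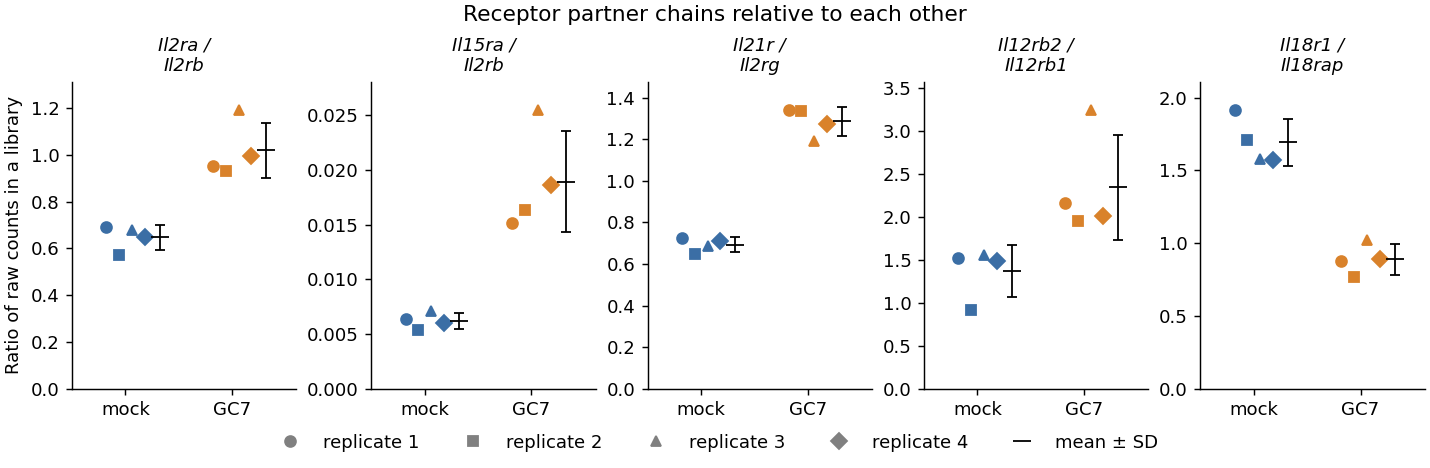
Ratio of raw counts (y axis from 0) of 5 pairs of chains in each mock (blue) and GC7 (orange) library, with the mean ± SD. *Il18r1* over *Il18rap* averaged 1.69 in mock and 0.89 in GC7, and the other 4 ratios were higher in every GC7 library than in any mock library. All pairs but *Il21r* over *Il2rg* were added after their values were seen. The ratios of *Il7r* and *Il12rb2* to *Il2rg*, which overlapped between the groups, are not drawn.

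Levels can be compared between genes only per length. In mock libraries the order, in CPM per kb of exons, was *Il2rb* (356 ± 12.3), *Il2ra* (173 ± 17.7), *Il2rg* (69.8 ± 4.97), *Il12rb2* (42.2 ± 10.3), *Il21r* (34.7 ± 0.81), *Il4ra* (29.6 ± 0.74), *Il7r* (29.0 ± 4.21), *Il12rb1* (28.2 ± 1.05), *Il18r1* (16.7 ± 0.63) and *Il15ra* (2.12 ± 0.25). Neighbours whose libraries overlapped were *Il12rb2* and *Il21r*, *Il4ra* and *Il7r*, and *Il7r* and *Il12rb1*. In GC7 libraries *Il2rb* (194 ± 38.6) overlapped *Il2ra* (146 ± 15.3), where it had been apart in mock. *Il21r*, at 75.4 ± 8.71 CPM per kb, had moved above *Il12rb2* (58.0 ± 4.21) and overlapped *Il2rg* (81.4 ± 5.62). The place of *Il12rb2* is uncertain in both groups, since 1519 of its 3794 exonic bases are shared with *Serbp1*. *Il2rg* and *Il4ra* share bases with other genes too, so their per-length places are uncertain to that extent. Below these, *Il4ra* (29.6 ± 1.43), *Il12rb1* (23.7 ± 4.55), *Il7r* (23.0 ± 3.53), *Il18r1* (7.75 ± 0.43) and *Il15ra* (3.40 ± 0.08) followed, with overlap between *Il12rb1* and *Il7r*.

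**Figure D5:**
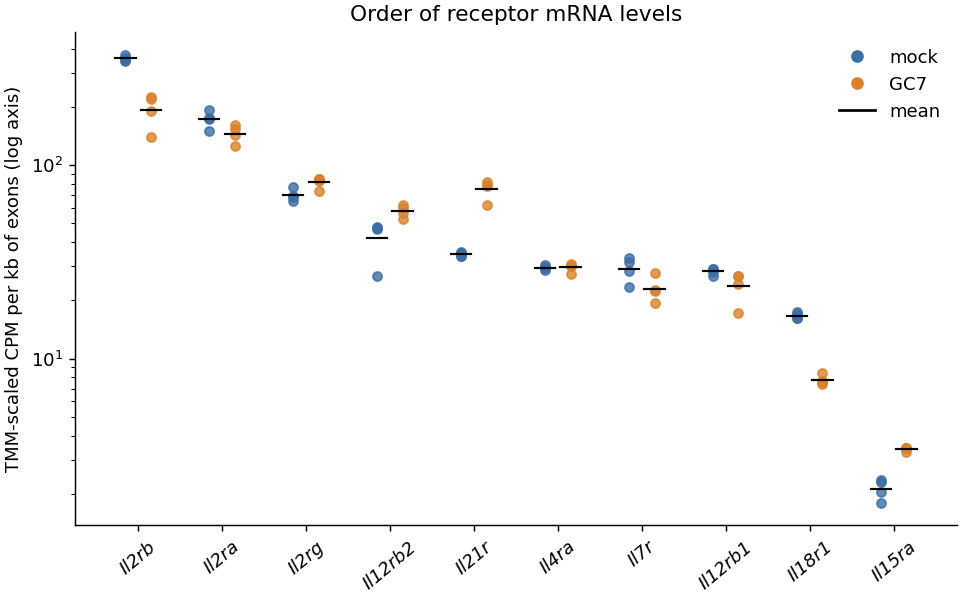
TMM-scaled CPM per kb of exons (log axis) of the 10 chains in each mock (blue) and GC7 (orange) library, ordered by the mock mean, which is drawn as a bar as is the GC7 mean. *Il2rb* lay apart from *Il2ra* in mock libraries and overlapped it in GC7 libraries, while *Il21r* lay at 34.7 in mock and 75.4 in GC7. The place of *Il12rb2* is uncertain because of the bases it shares with *Serbp1*.

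The remaining chains of the same receptors were either not called or hardly detected. *Crlf2*, which pairs with the IL-7 receptor α chain to bind TSLP, had 94.4 ± 12.1 CPM in mock and 88.7 ± 1.88 CPM in GC7 (log2 fold change -0.09, edgeR adjusted p = 0.361), a sign that turned with library totals as the scaling. *Il9r* and *Il13ra1* did not pass the low-count filter, at means of 0.11 CPM in mock and 0.10 and 0.046 CPM in GC7. Of 32 related receptor chains, 20 passed the filter, with a median log2 fold change of -0.04. Of these 20, 6 were called higher (23.0% of all genes), 5 lower (23.5% of all genes) and 9 were not called. The 3 largest rises were those of *Ifngr2*, a chain of the interferon γ receptor (2.92 ± 0.18 to 7.49 ± 0.79 CPM, log2 fold change 1.36), *Csf2ra*, the GM-CSF receptor α chain (0.97), and *Il6st*, the shared chain of the IL-6 family (0.72). The 3 largest falls were those of *Epor*, the erythropoietin receptor (3.74 ± 0.60 to 0.54 ± 0.10 CPM, log2 fold change -2.77), *Il17ra* (-0.78) and *Il10ra* (-0.55). *Ifngr2* and *Epor* passed the low-count filter through the group where they were high, GC7 and mock in turn. Their changes are thus not independent of the filter. Among chains outside the γc family, too, calls went in both directions.

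The ligands of these receptors were close to absent from the messenger RNA. None of 13 ligand genes passed the low-count filter. *Il7*, *Il9* and *Il12b* had no count in any library, where 3 counts correspond to 0.13 to 0.17 CPM, and the other 10 averaged under 1 CPM in each group. *Il2* averaged 0.29 ± 0.11 CPM in mock and 0.21 ± 0.11 CPM in GC7 libraries, while IL-2 protein was supplied in the medium of both groups.

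The 21 genes listed for signal transduction all passed the filter, with a median log2 fold change of -0.23. Among them 4 were called higher (23.0% of all genes), 9 lower (23.5% of all genes) and 8 were not called. *Jak3*, the kinase bound to γc, fell from 573 ± 33.2 to 377 ± 18.5 CPM (log2 fold change -0.60, SE 0.07, edgeR adjusted p = 8.8e-06). *Jak1*, bound to the partner signalling chains, fell from 386 ± 26.7 to 285 ± 17.6 CPM (-0.44, edgeR adjusted p = 0.000206). *Jak2*, which acts with the IL-12-specific chain, rose by 0.31 (edgeR adjusted p = 0.00313), a call lost without mock replicate 1 (0.0109) or GC7 replicate 4 (0.0108). *Tyk2*, which acts with the shared IL-12 chain, had a log2 fold change of 0.03 (edgeR adjusted p = 0.702), with a sign that turned without mock replicate 2 or GC7 replicate 3. Thus *Jak1* and *Jak3*, the kinases of the γc receptors, were both called lower.

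The STAT factors were mixed in the same way. *Stat5b* fell (log2 fold change -0.33, edgeR adjusted p = 0.00193), and *Stat5a* was not called (0.17, edgeR adjusted p = 0.0667). *Stat6*, the factor of IL-4, fell by 0.35 on the log2 scale (edgeR adjusted p = 0.000217). *Stat4*, the factor of IL-12, had -0.23 (edgeR adjusted p = 0.0204), and *Myd88*, the adaptor of the IL-18 receptor, had -0.24 (edgeR adjusted p = 0.014), neither past the threshold. With library totals as the scaling, *Stat5b* was at -0.24 and no longer past it. Called rises of the list included those of *Gab2*, an adaptor (0.76), and *Ptpn11*, a phosphatase (0.36). The largest falls were those of *Ptpn6*, the phosphatase SHP-1 (-0.68), *Irak2*, a kinase of the IL-1 receptor family (-0.61), and *Jak3*.

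Genes known to respond to or restrain STAT signalling also moved in both directions (median log2 fold change -0.13). Of 26, 8 were called higher (23.0% of all genes), 13 lower (23.5% of all genes) and 5 were not called. *Cish*, *Socs1*, *Socs2* and *Socs3*, the feedback inhibitors that cytokine-activated STAT factors are best known to induce, were all called lower, while *Socs4* (0.68), *Socs5* (0.59) and *Socs7* (0.61) of the same family were called higher. *Socs3* had 57.0, 80.0, 60.4 and 61.1 CPM in mock and 18.0, 18.1, 24.7 and 21.6 CPM in GC7 libraries, far apart, and fell by 1.65 on the log2 scale (SE 0.13, edgeR adjusted p = 3.9e-07). *Cish* fell from 249 ± 8.59 to 178 ± 14.8 CPM (-0.48, edgeR adjusted p = 8e-05), *Socs2* by 0.35 (edgeR adjusted p = 0.000254) and *Socs1* by 0.38 (edgeR adjusted p = 0.00398). The *Socs1* call was lost with library totals as the scaling and without GC7 replicate 2. In the list as a whole, the largest rises were those of *Ifng*, interferon γ (1.32), *Lif* (1.06) and *Ccnd2*, cyclin D2 (0.77), and the largest falls those of *Socs3*, *Prf1*, perforin (-1.46), and *Osm*, oncostatin M (-1.14).

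Among 26 factors known to act on the receptor genes, 23 passed the filter (median log2 fold change -0.19). Of these 23, 4 were called higher (23.0% of all genes), 11 lower (23.5% of all genes) and 8 were not called. *Tcf7*, a factor of naïve and memory T cells, rose from 18.6 ± 2.11 to 58.9 ± 9.67 CPM (log2 fold change 1.66), *Rel* rose by 1.08 and *Bach2* by 0.60. *Runx1* fell by 1.40 on the log2 scale, *Klf2*, a factor of lymphocyte trafficking, by 1.36, and *Prdm1*, which encodes BLIMP-1 of effector cells, by 1.30. Their part in the receptor levels was not tested.

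The labelled cell type matched its markers. All 14 CD8 T cell markers passed the filter, 2 were called higher (23.0% of all genes), 8 lower (23.5% of all genes) and 4 were not called. Their summed level was 6928 to 7688 CPM in mock and 6060 to 6301 CPM in GC7 libraries. With library totals as the scaling, with the replicate number as a block, without GC7 replicate 1 or without GC7 replicate 2, 5 were called lower. All genes called lower in these fits numbered 2056, 2485, 2318 and 2332 in turn, beside 2635 in the main comparison. *Cd8a* rose by 0.48 on the log2 scale and *Cd5* by 0.35, and the largest falls were those of *Lck* (-0.64), *Cd2* (-0.61) and *Thy1* (-0.53). In size, the *Lck* change (SE 0.07) was close to that of *Il15ra* (0.68, SE 0.10), the smallest among the 4 called receptor chains. The part of these T cell genes in the receptor levels was not tested.

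Of 25 markers of other cell types, 6 passed the filter, while 7 had at most 3 counts in every library and 2 of these 7 had none. Of the 6, 3 were called lower (23.5% of all genes), 1 higher (23.0% of all genes) and 2 were not called. *Ms4a1* of B cells and *S100a8* of neutrophils had no count, and *Cd4* averaged 0.20 CPM in mock and 0.25 CPM in GC7. The summed level of the list was 550 to 660 CPM in mock and 342 to 370 CPM in GC7 libraries, most of it from *Ighm* at 493 ± 49.5 and 276 ± 13.3 CPM. *Ighm* and *Cd79b*, B cell markers like *Ms4a1*, passed the filter. *Pecam1* and *Cd79b* fell by 0.80 and 0.76 on the log2 scale, and *Cd74*, the invariant chain, rose from 2.10 ± 0.34 to 12.3 ± 0.77 CPM. *Cd74* passed the low-count filter through the GC7 libraries alone, so its rise is not independent of the filter. The part of these markers in the receptor levels was not tested. In such bulk samples, fewer cells that express a receptor and less receptor RNA per cell cannot be told apart.

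Across the series, total counts ran from 17528776 to 25284730 a library, libraries of a group correlated at 0.987 or more and libraries of different groups at 0.936 or less (log2 CPM over genes, which are not independent replicates), and the biological coefficient of variation was 0.09.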

How the data were processed

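All 8 libraries, 4 GC7-treated and 4 mock-treated, were grouped by the sample labels. Paired-end reads were trimmed by the authors (Cutadapt), who aligned them to GRCm38 with STAR, and deposited raw counts per Ensembl gene from featureCounts, without normalisation or pooling. The strand setting and the handling of reads with several matches are not given in the sources used here. Genes with CPM above 3 in at least 4 libraries were kept. GC7 was compared with mock in edgeR (version 4.0.16, R version 4.3.3) with TMM factors, the group as the only term, the quasi-likelihood test and Benjamini-Hochberg adjustment over 11189 genes, and genes at an FDR under 0.01 were called. Levels are TMM-scaled CPM (mean ± SD), and per-length levels divide them by exonic length. A prior count of 2 was used in the log2 CPM behind the correlations between libraries, and not in the fold changes. Counts of 17528776 to 25284730 a library carry no molecular identifiers, so floors of 3 counts cover counting error only.

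Named are the 10 chains, the remaining chains of their receptors, their kinases, factors, adaptor and feedback genes, and at most 3 called genes in each direction of each other list. Some genes that this rule names are not reported here. The markers *Ms4a1*, *S100a8* and *Cd4*, the genes *Socs4*, *Socs5* and *Socs7*, and *Serbp1* and the other overlapping genes were added beyond this rule after their values were seen. So were the ratios between chains other than those to *Il2rg*. The chains and lists were chosen with earlier results of these data known. Near copies were sought with BLAST (version 2.17.0), and only the overlapping genes named in the text were found. The alternatives were RLE factors, library totals, DESeq2 (version 1.42.0), TMM without genes of the mitochondrial genome, limma-voom (version 3.58.1), no filter, filterByExpr, the replicate number as a block, other call rules, and each library left out. A setting without both mock replicate 2 and GC7 replicate 3 was chosen after seeing the data. The test was checked on simulated counts. Other numerical work used Python (version 3.11.15), pandas (version 2.3.3), numpy (version 2.4.6) and matplotlib (version 3.10.9).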

Additional observations from a re-analysis of the deposited data

Results flagged for a closer look

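An outlying library was looked for in each group of 4 by Dixon's ratio, the gap between the extreme library and its nearest neighbour over the whole range of the group. Of 142 groups, 13 passed the 95% critical value, where chance passes about 1 in 20. The extreme library was mock replicate 2 in 6 of them and GC7 replicate 3 in 4.

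Among the receptor chains, *Il12rb2* in mock replicate 2 (101 CPM, against 177 to 182 in the other mock libraries) had a ratio of 0.945. *Il15ra* in GC7 replicate 1 (14.6 CPM, against 15.3 in the others) had 0.992, a gap that is small against its change between the groups. The ratio of *Il12rb2* to *Il2rg* counts in mock replicate 2 was low (0.553, against 1.09 to 1.17, Dixon's ratio 0.863). The ratio of *Il12rb2* to *Il12rb1* counts was low in mock replicate 2 (Dixon's ratio 0.89) and high in GC7 replicate 3 (3.25, against 1.95 to 2.17, Dixon's ratio 0.836).

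Among the other named genes, *Klf2* was high in mock replicate 2 (197 CPM, against 129 to 137, Dixon's ratio 0.882) and low in GC7 replicate 3 (36.9 CPM, against 61.9 to 66.6, Dixon's ratio 0.845). Mock replicate 2 was also highest for *Thy1* (Dixon's ratio 0.894) and *Myd88* (0.832). GC7 replicate 3 was lowest for *Csf2ra* (0.967) and *Epor* (0.963). *Cd2* was lowest in GC7 replicate 2 (0.882), and *Irak2* was highest in GC7 replicate 4 (0.835). The cause of these deviations was not tested.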

How the results depend on the processing

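The direction and the call of *Il21r*, *Il15ra*, *Il2rb* and *Il18r1* were the same in all 17 refits, with log2 fold changes of 1.08 to 1.22, 0.61 to 0.77, -0.96 to -0.75 and -1.15 to -1.01. As each library was left out, the chains called higher numbered 2 to 4 and those called lower 2 to 4. All genes then gave 2096 to 2859 higher and 2303 to 2845 lower. The chains were 4 and 4 without both mock replicate 2 and GC7 replicate 3, where all genes gave 3223 and 3149. They were 4 and 4 at an FDR under 0.05 (all genes 3406 and 3246), and 1 and 1 with a 2-fold limit (all genes 355 and 594). With no filter 3 were called higher, *Il12rb2* being added, and 4 lower, *Il7r* and *Il12rb1* being added, beside 3335 and 3382 of all genes. With library totals *Il2rg*, and in DESeq2 *Il12rb2*, was added to those called higher, for 3 in each, beside 3346 and 2813 of all genes. *Il4ra* turned sign with RLE factors (-0.00257), TMM without mitochondrially encoded genes (-0.000899), DESeq2 (-0.00243) and filterByExpr (-0.00343), and ranged from -0.018 to 0.034 as libraries were left out, with 0.057 without both libraries named above. *Crlf2* was at 0.0065 with library totals and -0.14 to 0.0040 as libraries were left out. *Tyk2* ranged from -0.017 to 0.051 in the same way, and was at -0.047 without both named libraries. The cause of these shifts was not tested.

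Libraries with the same replicate number did not all deviate together (correlations 0.27, -0.12, 0.20 and -0.18 for numbers 1 to 4). The highest correlation of any pair was 0.42, for mock replicate 2 and GC7 replicate 4. Whether equal numbers mark a shared origin was not tested. With a replicate block 2 chains were called higher and 3 lower, the added chain being *Il7r* (-0.34, edgeR adjusted p = 0.00204), beside 2382 and 2485 of all genes, and 5 CD8 T cell markers were called lower.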
